A study of Mus musculus with 8 samples.

Results

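The genes described are 10 that encode centromere and kinetochore proteins: Cenpa, Cenph, Cenpn, Ndc80, Nuf2, Spc24, Spc25, Mis12, Mad2l1 and Zwint. They were chosen by name as parts of the centromere and kinetochore, with earlier results of these data known, and every probe that the platform annotation gives to one of these symbols was taken. The annotation holds 13 such probes for 9 of the 10 genes, among 16593 named symbols in all, and no probe for Zwint. For 8 of the genes the brightest probe was above the filter on dim probes and was tested, and Nuf2 was below it. RNA came from cerebella of mouse embryos at embryonic day 17.5, an Illumina BeadArray per animal. The control animals (WT, n = 4) were homozygous for a floxed Pals1 allele and had no Cre (Pals1 fl/fl;Cre-), and the conditional knockout animals (CKO, n = 4) had the same floxed alleles and hGFAP-Cre (Pals1 fl/fl;Cre+). This transgene places Cre under the human GFAP promoter, and per the series design it deletes Pals1 from most cerebellar neurons and glia, so vessels, meninges and blood are not among the cells it is said to reach. All animals thus carried the floxed alleles, and no group carried Cre without them.

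The kinetochore is the protein machine that joins a chromosome to the spindle in mitosis. It is built on centromeric chromatin marked by the histone variant CENP-A. A set of inner proteins, the constitutive centromere-associated network, binds this chromatin, the outer complexes of Knl1, Mis12 and Ndc80 grip microtubules, and checkpoint proteins such as Mad2 hold back anaphase while a kinetochore is not attached. Most of these genes are transcribed in dividing cells, with a peak late in the cell cycle. In the cerebellum before birth, the granule cell progenitors of the external granular layer are a large dividing population.

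Many genes of late cell-cycle expression carry near their start the cell cycle genes homology region (CHR), with the letters TTTGAA, which is bound by MuvB complexes, often with CCAAT boxes, bound by NF-Y, upstream. The RefSeq promoter windows, from 250 bases before to 50 bases after the annotated start on build GRCm38.p6, were searched on both strands for TTTGAA, for CCAAT, and for the E2F letters TTCCCGC, then TTGGCGC, then TTCGCGC and also TTGCCGC. A window was found for 9 of the 10 genes, all except Spc24. The windows shown are those of the 4 genes with TTTGAA, all of which were lower in CKO, and that of Mis12. Mis12 was tested and not past the threshold, with a dim probe. Of the 6 members that fell and had a window, 4 held TTTGAA, against 17.9% of all windows. Cenph and Mad2l1 fell without it, and their windows are not shown. Capitals mark TTTGAA or its reverse complement TTCAAA, and CCAAT or its reverse complement ATTGG. The windows lie at chr5:30666636-30666935 (plus strand) for Cenpa, chr2:69206164-69206463 (minus strand) for Spc25, chr17:71526808-71527107 (minus strand) for Ndc80, chr8:116921490-116921789 (plus strand) for Cenpn and chr11:71019361-71019660 (plus strand) for Mis12.
Cenpa: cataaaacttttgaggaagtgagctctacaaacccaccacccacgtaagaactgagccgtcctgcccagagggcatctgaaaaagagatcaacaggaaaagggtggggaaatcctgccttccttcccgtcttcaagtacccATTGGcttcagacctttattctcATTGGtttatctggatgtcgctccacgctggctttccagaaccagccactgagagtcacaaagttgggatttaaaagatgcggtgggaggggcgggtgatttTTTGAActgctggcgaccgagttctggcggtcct
Spc25: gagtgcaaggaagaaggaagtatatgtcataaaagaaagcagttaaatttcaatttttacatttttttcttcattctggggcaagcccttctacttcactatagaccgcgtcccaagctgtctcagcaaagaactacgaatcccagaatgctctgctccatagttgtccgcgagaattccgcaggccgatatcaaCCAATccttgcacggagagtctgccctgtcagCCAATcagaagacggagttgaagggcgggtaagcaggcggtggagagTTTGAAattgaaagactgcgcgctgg
Ndc80: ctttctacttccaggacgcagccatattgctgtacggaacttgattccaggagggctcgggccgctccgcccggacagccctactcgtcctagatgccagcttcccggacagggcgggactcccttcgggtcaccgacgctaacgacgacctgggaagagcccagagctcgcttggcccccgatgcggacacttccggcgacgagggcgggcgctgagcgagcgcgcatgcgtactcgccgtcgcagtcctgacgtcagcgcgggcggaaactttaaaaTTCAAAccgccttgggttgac
Cenpn: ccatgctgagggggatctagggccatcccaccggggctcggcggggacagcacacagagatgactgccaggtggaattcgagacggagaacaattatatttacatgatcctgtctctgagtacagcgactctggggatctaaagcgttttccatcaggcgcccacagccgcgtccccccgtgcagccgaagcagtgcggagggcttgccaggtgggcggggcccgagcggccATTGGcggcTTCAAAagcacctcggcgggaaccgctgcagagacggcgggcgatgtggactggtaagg
Mis12: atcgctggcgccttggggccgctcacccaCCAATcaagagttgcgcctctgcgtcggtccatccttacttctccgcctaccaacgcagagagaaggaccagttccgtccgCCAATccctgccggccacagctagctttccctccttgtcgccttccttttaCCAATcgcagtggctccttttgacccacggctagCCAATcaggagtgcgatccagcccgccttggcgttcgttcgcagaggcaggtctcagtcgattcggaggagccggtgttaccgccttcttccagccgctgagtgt

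TTTGAA began 16 bases past the start in Cenpa and 24 past it in Spc25. In Ndc80 and Cenpn the match was on the other strand, its reverse complement TTCAAA beginning at 29 and -9. CCAAT was present in 6 of the 9 windows, with 4 copies in Mis12. E2F letters were present in 2, Cenph and Cenpn, as reverse complements beginning 42 and 6 bases past the start. The windows of Nuf2 and Mad2l1 held none of these letters. Of all 32851 mouse windows of this length, 17.9% held TTTGAA, 37.4% held CCAAT and 9.57% held E2F letters. For the other centromere and kinetochore genes listed below, 40 genes had 45 windows, of which 40% held TTTGAA, 66.7% CCAAT and 31.1% E2F letters. Among the 1165 windows of all genes lower in CKO, 15.5% held TTTGAA, 46.1% CCAAT and 22.1% E2F letters. Among the 1297 windows of genes higher in CKO the shares were 10.5%, 35% and 12.6%. The share of all windows also covers genes that were not tested on the array. These matches describe the letters only and show no binding.

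**Figure D1:**
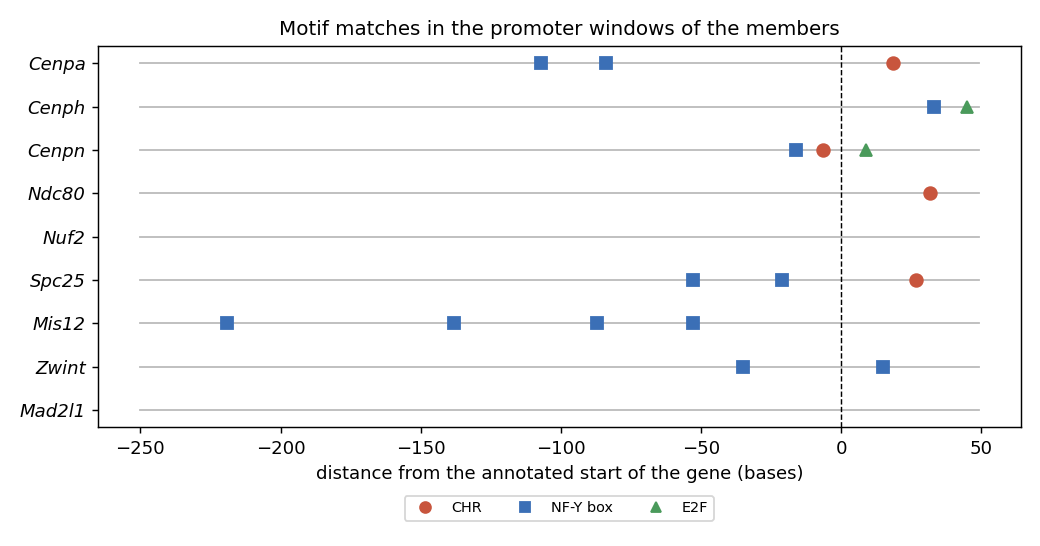
Positions of CHR, CCAAT (NF-Y box) and E2F letters in the RefSeq promoter windows of 9 members, plotted as the distance in bases from the annotated start, with the start at the dashed line and a grey line for each window. CHR letters lie between -9 and 34 bases of the start in Cenpa, Cenpn, Ndc80 and Spc25, and Nuf2 and Mad2l1 have no match.

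The arrays were alike in brightness, with median raw intensities from 118.7 to 133.5, and log2 levels correlated across genes between 0.983 and 0.990 across groups and between 0.991 and 0.997 within them. Mpp5, the gene of Pals1, fell by 0.87 on the log2 scale on its brightest probe (SE 0.07, limma adjusted p = 8.43e-06). On that probe every CKO array was below every WT array. The mean of all Mpp5 probes changed less, by -0.42 (limma adjusted p = 0.00075). Whether any of these probes lies within the floxed part of the gene was not examined. The cerebellar markers En2 and Zic1 were bright in WT, at log2 levels of 12.29 and 13.29, while the probes of Atoh1, Pax6 and Calb1 were below the filter. Of 8 tested cerebellar markers 3 fell, Zic1 (-0.64, limma adjusted p = 0.00203), Neurod1 (-0.36) and En1 (-0.27), and Foxp2 rose by 0.90 (limma adjusted p = 0.000127), with En2, Lhx1, Lhx5 and Pax2 not past the threshold. Over all genes tested 8.64% were lower and 9.15% higher. Xist, which marks female tissue, was at 6.83 in WT.3, at 9.71 to 10.10 in the other WT animals and at 6.60 to 6.77 in the CKO arrays, so the groups differed in sex. CKO.3 stood apart: averaged over 5 meningeal markers, the mean deviation from the 8-array mean was 1.58 log2 there, -0.31 to 0.05 for CKO.1, CKO.2 and CKO.4, and -0.61 to 0.06 in WT, and 0 of the 5 passed the test between genotypes. In bulk tissue, fewer dividing cells and less RNA per dividing cell cannot be told apart.

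Of the 8 members tested, 7 fell in CKO and 0 rose: Cenpa, Cenph, Cenpn, Ndc80, Spc24, Spc25 and Mad2l1. With the Xist level as a covariate, since the groups differ in sex, 3 stayed past the threshold. The calls of Cenph, Spc24, Spc25 and Mad2l1 were lost. For Spc24 and Spc25 the loss was on the brighter probe, the other probe of each staying past the threshold. That fit rests largely on WT.3, the only WT animal low in Xist, so it separates sex from genotype poorly. Across all 12912 genes tested 8.64% were lower and 9.15% higher at a limma adjusted p under 0.05 (1115 and 1182 genes; 1337 and 792 if arrays were scaled to their medians instead, with 7 members lower). The median change of the 8 members was -0.72 on the log2 scale, against 0.01 over all genes tested. For the same 7 members every CKO array was below every WT array, which held for 10.2% of all genes tested. Of 11 member probes above the filter 10 fell, where 7.98% of all 19272 probes tested did. A filter on low values passes a gene by its mean over all 8 arrays, and the counts do not cover Nuf2 or Zwint.

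**Figure D2:**
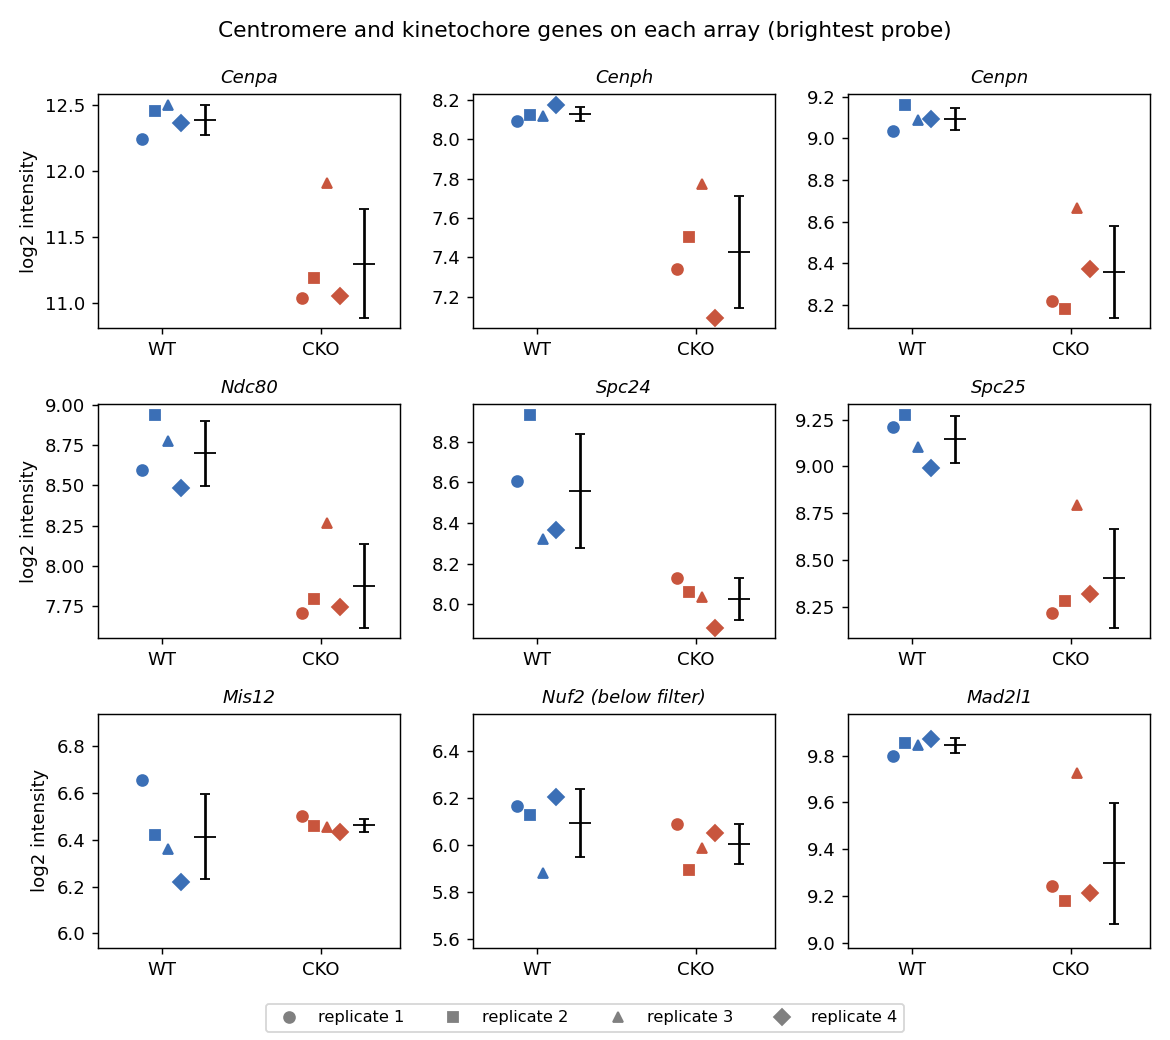
Normalized log2 intensity of the brightest probe of 9 members on each array, with WT in blue, CKO in red, a symbol for each replicate number, and a black bar for the mean with its SD (n = 4). The axes are cut to each gene's range, and the groups do not overlap in 7 panels, with CKO.3 (triangle) the highest CKO array in 6 of these, Spc24 being the exception.

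Cenpa encodes the histone H3 variant that replaces H3 in centromeric nucleosomes and marks the place where a kinetochore forms. Its single probe read 5317.7, 5999.2, 5585.8 and 5080.0 raw intensity units on WT.1 to WT.4, and 2272.1, 2146.2, 3908.6 and 1964.6 on CKO.1 to CKO.4. After normalization the log2 levels were 12.24, 12.45, 12.50 and 12.36 in WT and 11.04, 11.19, 11.91 and 11.06 in CKO. All CKO arrays were lower, and CKO.3 lay between the other CKO arrays and WT. Cenpa fell from 12.39 ± 0.11 (SD, n = 4) to 11.30 ± 0.41 (SD, n = 4), a change of -1.09 (SE 0.16, 95% interval -1.43 to -0.75, limma adjusted p = 0.000544). Its interval overlapped those of the other members that fell except Mad2l1.

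Cenpn and Cenph belong to the inner network on CENP-A chromatin, and the CENP-N protein reads the CENP-A nucleosome directly. The brighter Cenpn probe, ILMN_2897468, gave log2 levels of 9.04, 9.16, 9.09 and 9.09 for WT.1 to WT.4 and of 8.22, 8.18, 8.66 and 8.37 for CKO.1 to CKO.4. The WT arrays were tightly grouped, and CKO.3 was the highest of the CKO arrays. Cenpn fell by 0.74 (SE 0.10, limma adjusted p = 0.000322). Its other probe, ILMN_1223979, fell by 0.63 (SE 0.10, limma adjusted p = 0.000841 over all probes), so both probes gave the same direction. Cenph, a partner of CENP-I and CENP-K, was at 8.09, 8.12, 8.12 and 8.18 in WT and 7.34, 7.50, 7.77 and 7.09 in CKO. It fell by 0.70 (SE 0.11, 95% interval -0.95 to -0.45, limma adjusted p = 0.00120). The spread within WT, an SD of 0.04, was smaller than that within CKO, 0.29.

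Ndc80, Nuf2, Spc24 and Spc25 encode the 4 subunits of the Ndc80 complex, the rod that binds the microtubule with its Ndc80 and Nuf2 end and the inner kinetochore with its Spc24 and Spc25 end. The brighter Ndc80 probe, ILMN_2816754, was at 8.60, 8.94, 8.78 and 8.48 in WT and 7.70, 7.79, 8.26 and 7.74 in CKO. Ndc80 fell by 0.82 (SE 0.13, limma adjusted p = 0.000831), with CKO.3 again nearest to WT. The other Ndc80 probe, ILMN_1227733, was below the filter with overlapping groups (5.88 to 6.38 in WT, 5.89 to 6.25 in CKO) and was not tested. The mean of both probes changed by -0.52 (limma adjusted p = 0.00230).

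For Spc25, probe ILMN_1255960 was at 9.21, 9.28, 9.10 and 8.99 on the WT arrays. On the CKO arrays it was at 8.22, 8.28, 8.79 and 8.32, all lower, with CKO.3 the highest. It fell by 0.74 (SE 0.12, limma adjusted p = 0.000869), and the other, ILMN_2901180, fell by 0.76 (SE 0.11, limma adjusted p = 0.000451 over all probes). The probes of Spc25 thus differed in their change by less than a standard error.

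For Spc24 the brighter probe, ILMN_2948272, was at 8.61, 8.94, 8.32 and 8.37 in WT and 8.13, 8.06, 8.03 and 7.88 in CKO, and it fell by 0.53 (SE 0.12, limma adjusted p = 0.00769). Here WT.3 was the lowest WT array, the spread within WT (SD 0.28) exceeded that within CKO (SD 0.10), and CKO.3 was not raised. The other probe, ILMN_2615709, was at 7.93, 8.08, 8.21 and 8.03 in WT and 7.44, 7.52, 7.68 and 7.37 in CKO, with WT.3 the highest WT array and CKO.3 the highest CKO array. It fell by 0.56 (SE 0.09, limma adjusted p = 0.000688 over all probes), so the probes gave like changes with a different order of arrays.

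Nuf2, the direct partner of Ndc80, could not be read with its single probe. Log2 levels were 6.17, 6.13, 5.88 and 6.20 in WT and 6.09, 5.89, 5.99 and 6.05 in CKO, the groups overlapped, and only 3.10% to 21.3% of the probes on a WT array were dimmer. With the filter removed it changed by -0.09 (limma adjusted p = 0.580). At this brightness a difference was not detectable, and the raw readings ran from 67.9 to 85.3.

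Mis12 encodes a subunit of the complex that links the inner proteins to Ndc80. Its single probe was dim, at 6.66, 6.42, 6.36 and 6.22 in WT and 6.50, 6.46, 6.45 and 6.43 in CKO, all below the median probe of 6.84. The CKO arrays lay inside the range of the WT arrays. The difference was 0.05 (SE 0.09, 95% interval -0.14 to 0.23, limma adjusted p = 0.768). Near background the scale pulls changes towards 0, so this interval bounds the change of the reading and not that of the RNA. Zwint, which binds Knl1 and recruits the RZZ complex, is not analysed here.

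Mad2l1 encodes Mad2, the spindle checkpoint protein that holds Cdc20 inactive at unattached kinetochores. It was at 9.80, 9.85, 9.85 and 9.87 in WT and 9.24, 9.18, 9.72 and 9.21 in CKO. Mad2l1 was well below WT on 3 CKO arrays, whereas CKO.3 was 0.07 below the lowest WT array. Mad2l1 fell by 0.50 (SE 0.11, 95% interval -0.73 to -0.27, limma adjusted p = 0.00589), and by 0.63 without CKO.3 (limma adjusted p = 3.34e-05). Ordered by size on the log2 scale the falls ran Cenpa, Ndc80, Spc25, Cenpn, Cenph, Spc24 and Mad2l1, and the 95% intervals of neighbours in this order overlapped in every case.

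CKO.3 was nearer to WT than the other CKO arrays were. Averaged over the 7 members that fell, the deviation was -0.02 there, -0.52 to -0.44 on CKO.1, CKO.2 and CKO.4, and 0.29 to 0.49 on the WT arrays. By gene, CKO.3 exceeded the mean of the other 3 CKO arrays by 0.81 for Cenpa, by 0.41 to 0.52 for Cenph, Cenpn, Ndc80, Spc25 and Mad2l1, and by 0.01 for Spc24. The Mpp5 level of CKO.3, 6.25, lay within the 6.08 to 6.28 of the other CKO arrays. These readings are near the filter on dim probes, 6.26, so they cannot show whether CKO.3 lost as much Mpp5 RNA as the others. Without CKO.3 the same number of members, 7, fell, with Cenpa at -1.29 and Mad2l1 at -0.63. The high meningeal markers of CKO.3 move with this difference. So does the mean of the choroid plexus list, at 0.21 there against -0.18 to -0.12 on the remaining CKO arrays. That mean was carried by Ttr, at 8.38 against 6.78 to 7.13, and Clic6, at 7.09 against 6.52 to 6.74. Kcne2 was lowest on CKO.3 (6.56 against 6.64 to 6.80), and Folr1 and Kl lay within the range of the remaining CKO arrays. The part of either list in the difference was not tested.

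Sex differed between the groups, except for WT.3, the WT animal with low Xist. On WT.3 the members that fell had a mean deviation of 0.35, within the range of the other WT arrays, 0.29 to 0.49. In a fit with the Xist level as a covariate, 3 of the 8 tested members were still past the threshold: Cenpa (-1.21, limma adjusted p = 0.0277), Cenpn (-0.73, limma adjusted p = 0.0292) and Ndc80 (-0.89, limma adjusted p = 0.0368). Cenph, Spc25 and Mad2l1 kept changes of -0.70, -0.68 and -0.52 with limma adjusted p of 0.0583, 0.0638 and 0.116. Over all genes the lower calls went from 1115 to 430. The other Spc25 probe, ILMN_2901180, changed by -0.82 in this fit (limma adjusted p = 0.0281 over all probes) and stayed past the threshold. Spc24 changed by -0.27 (limma adjusted p = 0.405) on its brighter probe and by -0.72 (limma adjusted p = 0.0137 over all probes) on the other. WT.3 was the lowest WT array on the brighter Spc24 probe and the highest on the other. All CKO arrays and, in WT, only WT.3 had low Xist, so this fit rests largely on WT.3 against the CKO arrays. Without the covariate the changes of Cenph and Mad2l1 were -0.70 and -0.50, so their calls were lost at a like size.

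The members varied together mainly through CKO.3. Over the 8 arrays, as deviations from the group means, the 21 pairs of the 7 members had a median Pearson correlation of 0.78 (range 0.01 to 0.94), and over the 7 arrays without CKO.3 a median of 0.06 (range -0.78 to 0.72). These points share the arrays and their normalization, and the values are given as a description. The 5 other genes whose deviations were most like the members' mean were Nusap1 (r = 0.99), Sh3bgrl2, Ptgds, Pltp and Cdca4 (r = 0.98 each, over 8 arrays). Without CKO.3 their correlations with that mean were 0.96, 0.91, 0.87, 0.92 and 0.92. The genes were picked for their likeness over all 8 arrays, so these values are a description too. Nusap1, a spindle protein, fell by 0.97 (limma adjusted p = 0.000739) and Cdca4 fell by 0.71 (limma adjusted p = 0.000308). Ptgds, a prostaglandin synthase, was at 0.25 (limma adjusted p = 0.525) and Pltp, a lipid transfer protein, at 0.12 (limma adjusted p = 0.477), so likeness across arrays was not likeness in the genotype difference.

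The rest of the centromere and kinetochore was followed in a list of 49 genes chosen by function, of which 37 were on the array and 34 were tested. Of these, 18 were lower in CKO and 0 higher, and the median was -0.34, against 8.64% lower and a median of 0.01 over all genes tested. The other 16 did not pass, 13 of them with a negative difference. With the Xist covariate 11 fell, and without any single array 14 to 19 fell. Split at the median level of all genes tested, 7.75, members and list together fell in 21 of 30 brighter genes and 4 of 12 dimmer ones. The share of all genes tested was not split by level, so this contrast cannot be read as a trait of these genes.

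**Figure D3:**
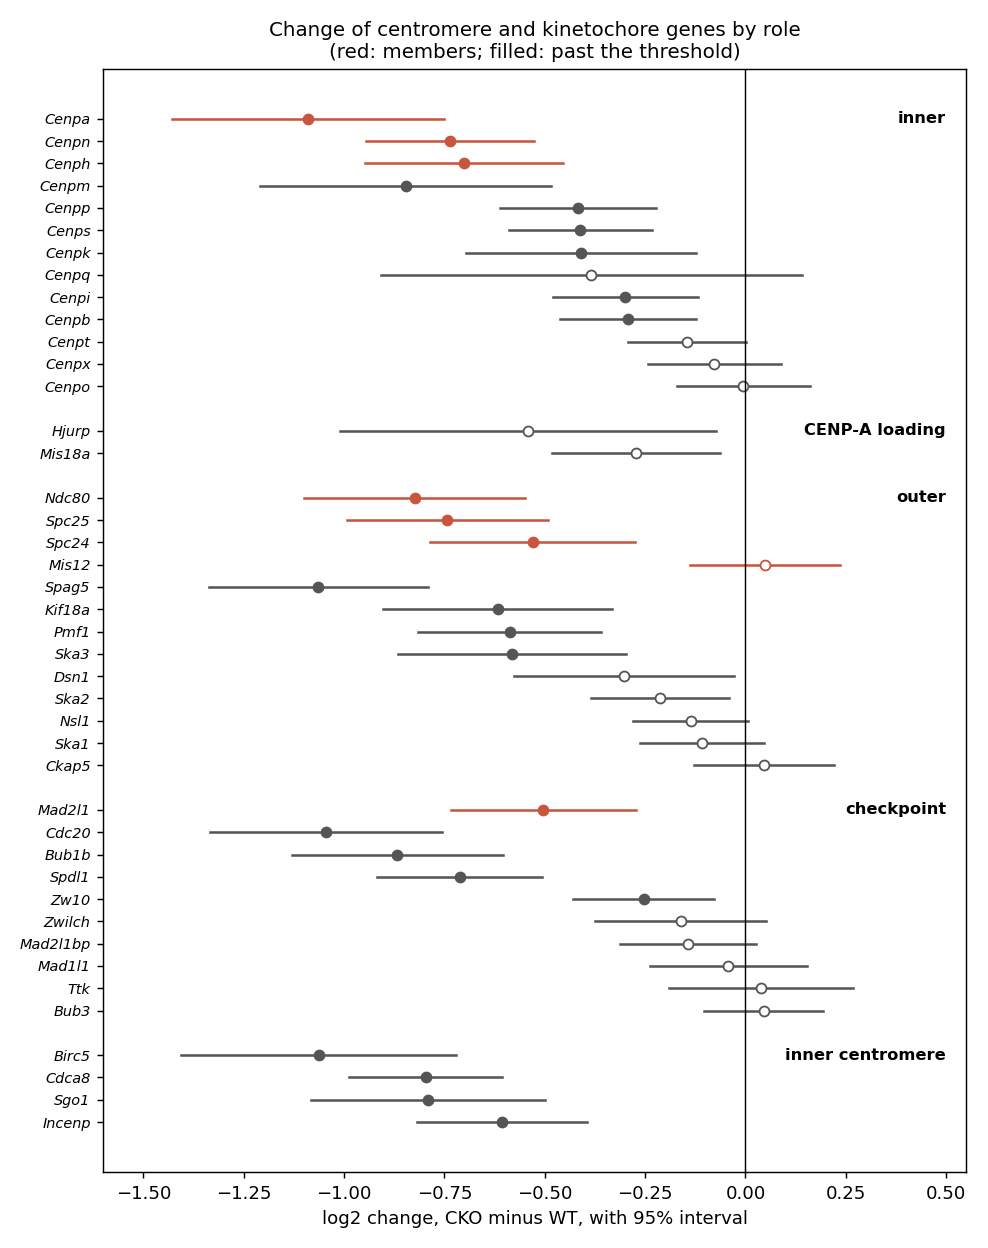
Change in log2 intensity, CKO minus WT, with its 95% interval (limma, n = 4 and 4) for the 8 members tested (red) and 34 other centromere and kinetochore genes (grey), grouped by role, with filled points for genes past the adjusted threshold of 0.05. Filled points all lie to the left of 0, from -1.09 for Cenpa to -0.25 for Zw10, and all 4 inner centromere genes are filled.

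Among the inner proteins 6 of 10 tested fell. Cenpm fell by 0.85 (SE 0.17, limma adjusted p = 0.00392) and its 3 probes all fell, with changes of -0.85 to -0.65, while Cenpp fell by 0.42 (SE 0.09, limma adjusted p = 0.00643). Cenpb, which binds a centromeric repeat, fell by 0.29, Cenpi by 0.30, and Cenps and Cenpk by 0.41 each. The fall of Cenpk had a limma adjusted p of 0.0495 (0.00134 to 0.559 under other settings): CKO.3 read 8.18 against 8.01 to 8.27 in WT, and 14 of 21 alternatives lost the call. The other Cenpk probe was below the filter, at 6.22 in WT and 6.23 in CKO. Cenpo, Cenpq, Cenpt and Cenpx did not pass, with changes from -0.38 to -0.01. Cenpc1, the scaffold of the network, was below the filter.

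Of the factors that load CENP-A after mitosis, neither tested gene passed. Hjurp, the CENP-A chaperone, was at 10.80, 10.92, 10.69 and 11.18 in WT and 10.59, 10.77, 9.50 and 10.55 in CKO, a change of -0.54 (SE 0.22, limma adjusted p = 0.108). Unlike the members, Hjurp was lowest on CKO.3, and without that array its change was -0.26. Mis18a, which prepares the centromere for loading, changed by -0.27 (SE 0.10, limma adjusted p = 0.0703) and by -0.37 without CKO.3 (limma adjusted p = 0.00424).

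In the outer kinetochore 4 of 9 tested genes fell. Spag5, or astrin, which steadies attached microtubules, fell by 1.06 (SE 0.13, limma adjusted p = 0.000175), but its other probes changed by -0.13 and -0.21 and did not pass. Kif18a, a kinesin that damps chromosome movement, fell by 0.62 (SE 0.13, limma adjusted p = 0.00629) on the brighter of its probes, the other being below the filter. Its call was lost as the mean of both probes (-0.25, limma adjusted p = 0.114) and with the Xist covariate (-0.44, limma adjusted p = 0.255). Pmf1, a subunit of the Mis12 complex, and Ska3 also fell. Dsn1, Nsl1, Ska1, Ska2 and Ckap5 did not pass, with changes from -0.30 to 0.05. Dsn1 and Nsl1 are partners of Mis12, and Nsl1 was dim (6.75 in WT).

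Of the checkpoint genes 4 of 9 tested fell. Cdc20, the activator of the anaphase promoting complex that Mad2 restrains, fell by 1.05 (SE 0.13, limma adjusted p = 0.000291), and each of its 4 probes fell, with changes of -1.05 to -0.77. Bub1b, the checkpoint kinase-like protein BubR1, fell by 0.87 (SE 0.12, limma adjusted p = 0.000469). The others were Spdl1, which brings dynein to kinetochores, and Zw10 of the RZZ complex. Zw10 passed narrowly on its brightest probe (-0.25, limma adjusted p = 0.0473), and its other tested probes did not pass (-0.17 and -0.25, limma adjusted p = 0.162 and 0.126 over all probes). Bub3, Mad1l1, Ttk, Zwilch and Mad2l1bp did not pass, with changes from -0.16 to 0.05. Bub3, a partner of both Bub1 and BubR1, was at 9.29 in WT and 9.33 in CKO, bright enough to be read, and Mad1l1, the binding partner of Mad2 at the kinetochore, was at 7.44 and 7.40.

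All 4 tested genes of the inner centromere, where the chromosome passenger complex and shugoshin act, fell. Birc5, or survivin, fell by 1.06 (SE 0.16, limma adjusted p = 0.000703) with 3 probes at -1.06 to -1.01, and Cdca8, or borealin, by 0.80 (SE 0.09, limma adjusted p = 0.000109). Incenp, the scaffold of the passenger complex, and Sgo1, which protects cohesion, fell by 0.61 and 0.79. The fall of Sgo1 is that of its brightest probe, its other probes being below the filter with overlapping groups. The median change of these 4 genes was -0.79, near the -0.72 of the members. A test of the difference between role groups was not made.

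**Figure D4:**
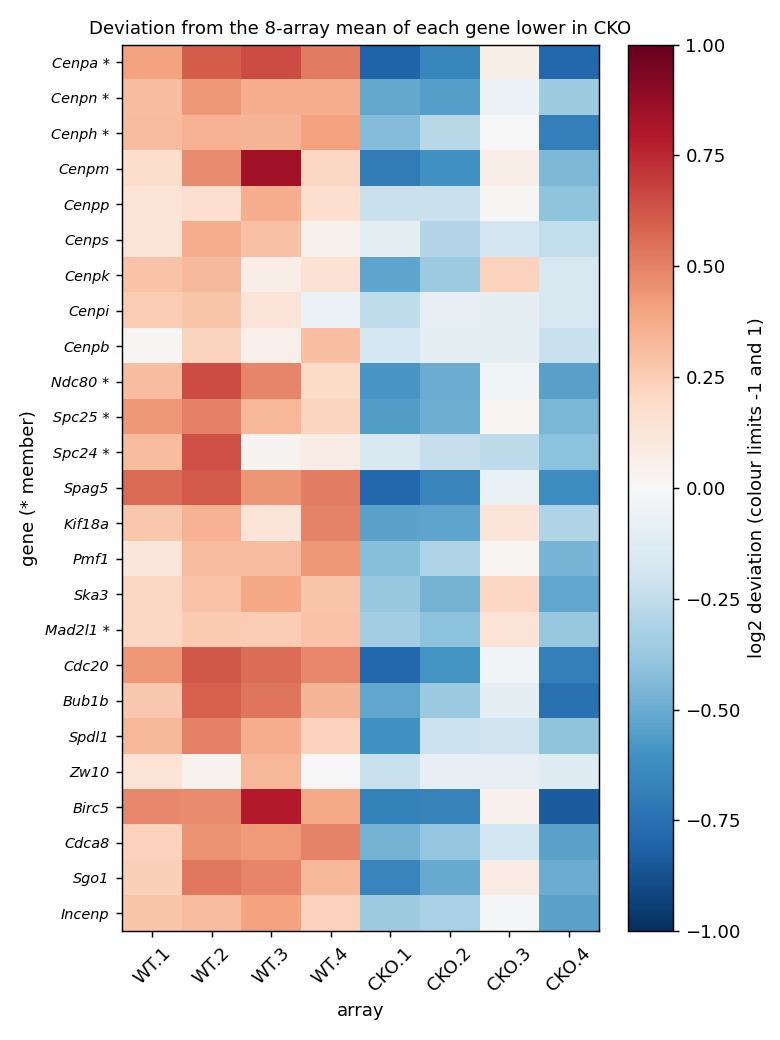
Deviation of the log2 level from the gene's 8-array mean (colour, limits -1 and 1 log2) for the 25 members (starred) and other centromere and kinetochore genes that fell in CKO, in rows by role, on each of the 8 arrays in columns. The WT columns are mostly above the mean and CKO.1, CKO.2 and CKO.4 below it, while CKO.3 is paler, with some genes, such as Cenpk, Ska3 and Mad2l1, above their means there.

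A list of dividing-cell genes set the size of these changes beside those of replication and other mitotic genes. For this list and those below, the shares over all genes tested were 8.64% lower, 9.15% higher and 17.8% either way. Of 11 tested dividing-cell genes 10 were lower in CKO and 0 higher, the median being -0.85. Top2a, the topoisomerase of dividing cells, fell by 0.86 (SE 0.11, limma adjusted p = 0.000322). Averaged over the list, deviations were -0.57 to -0.39 on CKO.1, CKO.2 and CKO.4 and -0.02 on CKO.3, which was again the nearest to WT. Of 7 tested markers of granule cell progenitors all 7 fell, with a median of -1.30. The list mean on CKO.3 was -0.28, against -0.78 to -0.56 on the remaining CKO arrays. That mean was carried mainly by Mfap4, at 9.30 against 7.73 to 8.11, and Sfrp1, at 8.58 against 7.83 to 7.92. Insm1 was also higher there (10.19 against 9.36 to 9.76), and Ccnd2 slightly so (9.59 against 9.23 to 9.56). Barhl1 and Zic1 lay within the range of the remaining CKO arrays, and Zic2 was lowest on CKO.3 (8.52 against 8.59 to 9.05). Zic1 is in this list and in the cerebellar one, and is counted in both. Of 4 erythroid markers 0 passed, with list means of -0.12 to 0.22 in WT and -0.27 to 0.17 in CKO. Of 7 microglial markers 6 rose, with list means of -0.22 to -0.15 in WT and 0.02 to 0.32 in CKO. The other, Fcer1g, was erratic, at 8.46, 8.45, 5.99 and 6.13 on CKO.1 to CKO.4, so it moves these CKO means and their order. Of 5 endothelial markers 2, Emcn (0.35) and Pecam1 (0.20), rose, with list means of -0.14 to -0.03 in WT and 0.01 to 0.17 in CKO. In each of 3 further lists 1 marker fell: Pdgfra of 4 tested for oligodendrocyte precursors (-0.98, limma adjusted p = 0.00206), Ttr of 5 for choroid plexus (-1.09, limma adjusted p = 0.0168) and Vim of 5 for radial glia (-0.37, limma adjusted p = 0.0134). The means of these lists ran from 0.01 to 0.23, -0.01 to 0.15 and 0.0043 to 0.07 in WT, and from -0.24 to 0.01, -0.18 to 0.21 and -0.04 to -0.01 in CKO. The part of these cell types in the members' levels was not tested.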

How the data were processed

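The deposited tables hold 25697 probes on 8 arrays. Linear intensity values, exported from BeadStudio as gene profiles per the labels, were not normalized between arrays. A further table deposited by the authors holds log2 values, which its values show to be quantile-normalized intensities (equal to within 0.014, common median 6.98). Array number limits the precision, and no detection p-values, chip names or scan times were used.

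Intensities were background-corrected (normexp, offset 50), quantile-normalized and log2-transformed with limma 3.58.1 in R 4.3.3. A gene is its brightest probe by mean over the arrays, and entered the test if this mean passed the lower quartile over probes (6.26). Each probe above the filter was also tested. lmFit and eBayes, two-sided, were fitted with genotype alone, with Benjamini-Hochberg adjustment over all genes or probes and a threshold of 0.05. The fit was tested on simulated data. Groups and replicate numbers came from the sample titles, and the animals are the replicates. Named genes were all members, up to 2 with the largest change among those past the threshold per role of the wider list, members of a role that did not pass where these were 5 or fewer, and the 5 most alike across arrays. Cenpk, Hjurp, Mis18a and further genes beside small counts were named after their values were seen. The members, lists and motifs were chosen with earlier results of these data known. Alternatives covered background, normalization, the authors' log2 values, filters, the choice of probe, weights for arrays, moderation of variances, a replicate block, the Xist level and leaving out arrays. Symbols are those of the platform annotation, 23978 probes having 1 symbol, 0 several and 1719 none. Plots used Python 3.11.15 and matplotlib 3.10.9.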

Additional observations from a re-analysis of the deposited data

Results flagged for a closer look

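In 26 groups of 4 arrays, 13 probes in WT and in CKO, a single array lay far from the other 3 in 4 groups, by a gap whose share of the group's range passed Dixon's 95% critical value. Chance gives such a gap in about 1 group in 20, and the probes share their arrays. In 3 of the groups the array was CKO.3, above the other CKO arrays: Mad2l1 read 9.72 against 9.24 for the next, the brighter Ndc80 probe 8.26 against 7.79, and the dimmer Cenpn probe 7.49 against 7.09. The remaining case was the Ndc80 probe below the filter, which read 5.88 on WT.3 against 6.31 for the next WT array.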

How the results depend on the processing

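Over 21 alternatives, 7 members fell in 20, and the count with the Xist covariate was 3. Member probes past the threshold numbered 10 in 19 of 20 alternatives and 6 with that covariate, and the other centromere and kinetochore genes 11 with it and 14 to 20 otherwise. Leaving out each array in turn gave 7 members, 10 probes and 14 to 19 other genes. Mpp5 kept its call in all 20 alternatives that tested it, from -1.34 with an offset of 16 to -0.42 as the mean of its probes, and from -0.89 to -0.83 without single arrays. Mis12 ranged from -0.017 to 0.13 without single arrays and Cenpq was 0.36 with the Xist covariate, neither past the threshold. Calls gained were those of Hjurp with the replicate block, Mis18a under 4 alternatives, and Cenpq and Hjurp without WT.3 and CKO.3 together. Kif18a lost its call as the mean of its probes and with the Xist covariate. In each such case the cause was not tested. The replicate numbers did not pair the animals (correlations of deviations of same-numbered arrays from -0.06 to 0.17, 1 of 4 WT arrays closest to its own number). With the replicate block 7 members, 10 member probes and 17 other genes fell, and Mpp5 changed by -0.87. The detection of change in Nuf2 and Mis12 is limited by signal near background.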
